A study of Homo sapiens with 2 samples.

Results

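The genes TFCP2L1, KLF2, KLF4, TFAP2C, NR0B1 and NLRP7, 6 regulators or markers of naive pluripotency, were followed in human embryonic stem cells in which TFCP2L1 was targeted by a short hairpin RNA (shRNA). They were chosen by gene symbol from the 2005 genes of the authors' deposited table, with earlier results of these data known. That all 6 have a row therefore follows from the choice and is not a result. The knockdown cells were HES2, an established human embryonic stem cell line, infected with a lentivirus that carried an shRNA against TFCP2L1, and the control cells were HES2 infected with a scramble lentivirus. Both cultures were grown for 3 passages in medium with 10% KSR (a serum replacement), FGF2 at 10 ng/ml and Activin A at 10 ng/ml. Each group is 1 library, so no difference given here could be checked against replicates, and each statement compares the 2 libraries only. The labels name neither the hairpin sequence nor the number of hairpins, and nothing in them tells whether the infected cells were a pool or a clone.

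Naive pluripotency is the state of the preimplantation epiblast, while human embryonic stem cells in medium with FGF2 and Activin A are held in the primed state, which resembles a later epiblast. In mouse embryonic stem cells the naive state rests on a network of transcription factors that includes Tfcp2l1, Klf2, Klf4 and Esrrb, and Tfcp2l1 and Klf4 act downstream of LIF and STAT3. In human cells TFAP2C is required for the naive state, and KLF4 is among the factors used to reprogram cells to pluripotency.

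Levels are in FPKM (fragments scaled by gene length and library size), as deposited, and read numbers were inferred from the deposited values. The knockdown library held about 22680000 reads and the scramble library about 23450000. Intervals are exact (Clopper-Pearson for ratios, Poisson for levels) 95% intervals and cover counting error only. The table holds only genes that differ by at least 2-fold in level with a false discovery rate of at most 0.000990, both by the authors' values. That made 1084 higher genes (5.86% of the 18489 genes inferred as tested) and 921 lower genes (4.98%). A gene with no row may therefore be unchanged, too low or untested, and nothing is said of its level. Among the defining markers of undifferentiated cells, SOX2, UTF1 and PODXL have a row, with a summed level of 180.0 FPKM in the knockdown library and 491 FPKM in the scramble library, and POU5F1, NANOG, LIN28A, SALL4, TDGF1, DNMT3B and DPPA4 have none.

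The stretches upstream of the transcription start are shown for the genes on either side of the comparison, because KLF factors and their SP relatives bind GC-rich elements of this kind. RefSeq's promoter table (GRCh38.p14) held an entry for 5 of the 6 genes, all but TFAP2C. The 250 bases before the start lie at chr2:121285203-121285452 (minus strand) for TFCP2L1, chr9:107489770-107490019 (minus strand) for KLF4, chr19:54947531-54947780 (minus strand) for NLRP7, chr19:16324576-16324825 (plus strand) for KLF2 and chrX:30309391-30309640 (minus strand) for NR0B1. They are printed 5′ to 3′ in the direction of the gene, first the 3 lower and then the 2 higher genes, and capitals mark the GC box, GGGCGG on either strand.
TFCP2L1: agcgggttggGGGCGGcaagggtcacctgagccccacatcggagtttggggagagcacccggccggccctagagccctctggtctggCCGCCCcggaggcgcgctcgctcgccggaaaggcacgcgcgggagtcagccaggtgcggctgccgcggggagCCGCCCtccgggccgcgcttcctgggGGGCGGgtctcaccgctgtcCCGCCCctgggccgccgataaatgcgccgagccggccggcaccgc
KLF4: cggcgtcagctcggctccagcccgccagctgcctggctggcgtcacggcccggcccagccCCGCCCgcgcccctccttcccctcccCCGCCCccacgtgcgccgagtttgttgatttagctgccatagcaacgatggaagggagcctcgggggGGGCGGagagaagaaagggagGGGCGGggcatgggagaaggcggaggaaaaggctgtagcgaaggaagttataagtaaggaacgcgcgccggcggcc
NLRP7: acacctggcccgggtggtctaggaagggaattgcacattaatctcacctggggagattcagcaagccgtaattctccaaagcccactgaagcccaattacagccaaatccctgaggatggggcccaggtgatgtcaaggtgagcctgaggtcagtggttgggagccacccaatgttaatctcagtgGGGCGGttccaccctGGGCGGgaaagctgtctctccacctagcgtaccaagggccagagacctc
KLF2: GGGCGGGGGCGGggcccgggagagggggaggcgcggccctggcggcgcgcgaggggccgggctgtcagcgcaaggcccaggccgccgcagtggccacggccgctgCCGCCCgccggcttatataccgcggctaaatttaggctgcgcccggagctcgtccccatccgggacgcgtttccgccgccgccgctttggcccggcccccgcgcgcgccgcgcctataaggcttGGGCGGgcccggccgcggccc
NR0B1: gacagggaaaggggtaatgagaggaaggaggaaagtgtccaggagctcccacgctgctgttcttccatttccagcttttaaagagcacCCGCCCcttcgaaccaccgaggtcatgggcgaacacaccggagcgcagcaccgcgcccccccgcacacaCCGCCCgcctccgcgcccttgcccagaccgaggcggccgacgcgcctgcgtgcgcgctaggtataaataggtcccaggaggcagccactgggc

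The TFCP2L1 stretch had 5 GC boxes, those of KLF4 and KLF2 had 4 each, and those of NLRP7 and NR0B1 had 2 each. Of 34941 upstream stretches of the same length in the table, 42.5% hold at least 1. The CACCC-type KLF motif CCNCNCCC was found on either strand at 10 places in the KLF4 stretch, 9 of which overlap a GC box, at 5 places for KLF2 (3 overlapping), at 2 for TFCP2L1 (both overlapping), at 2 for NR0B1 (0 overlapping) and at 0 for NLRP7, against 53.3% of all stretches with at least 1. The AP-2 palindrome GCCNNNGGC (19.7% of all stretches) and a pair of CP2 half-sites, CCNGNNNNNNCCNG (34.8%), each had 1 match, in KLF4, and none in the other 4. The nuclear receptor half-site AGGTCA (12.1%) had 1 match each in NR0B1 and NLRP7. GC content was 76.8% for TFCP2L1, 80.0% for KLF2, 69.2% for KLF4, 65.2% for NR0B1 and 56.8% for NLRP7, with a median of 58.0% over all stretches. These counts describe letters and do not separate the higher from the lower genes, since KLF2 and KLF4 have equal numbers of GC boxes.

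The comparison asks which regulators differed when TFCP2L1 was targeted. TFCP2L1, KLF4, TFAP2C and NLRP7 were lower in the knockdown library, and KLF2 and NR0B1 were higher. With a pseudocount of 0.1 FPKM, and a level that reached 1 FPKM in either library, 4 of the 6 were at least 2-fold lower and 1 was at least 2-fold higher. By the same limits 35.4% of all deposited genes were lower and 40.8% higher, so passing the limit is not particular to these 6. NR0B1 stayed under 1 FPKM in both libraries and is counted in neither direction. The log2 ratios with the pseudocount, knockdown over scramble, were -2.94 for TFCP2L1, -1.61 for NLRP7, -1.51 for KLF4, -1.08 for TFAP2C, 2.35 for KLF2 and 3.18 for NR0B1, where the medians of all lower and all higher deposited genes were -1.37 and 1.50.

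**Figure D1:**
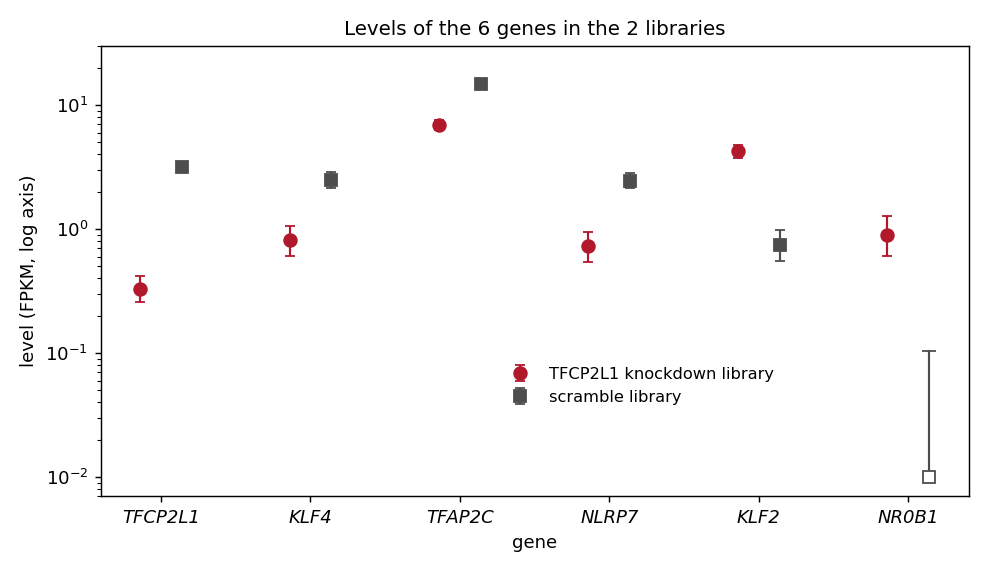
Levels of the 6 genes in FPKM (log axis) in the TFCP2L1 knockdown library (red circles) and the scramble library (grey squares). Bars are exact Poisson 95% intervals of counting error, and the open square is the deposited floor of 0.01 FPKM for a library with 0 inferred reads. TFCP2L1, KLF4, TFAP2C and NLRP7 lie lower in the knockdown library, KLF2 and NR0B1 higher, and no pair of bars overlaps.

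TFCP2L1 (gene ID 29842, chromosome 2) encodes a CP2-type transcription factor, related to the grainyhead factors, and is the gene the shRNA was made against. It measured 0.33 FPKM in the knockdown library, against 3.19 FPKM in the scramble library, from 69 knockdown reads and 692 scramble reads. That is 9.70-fold lower (interval 7.56 to 12.6), and 21 of the 921 lower genes had a lower log2 ratio with the pseudocount. Its interval of the ratio, 0.0793 to 0.132, lies wholly below those of the other 3 lower genes, of which the lowest bound is 0.211. By the authors' p-value it stood at place 400 of the 18489 genes. Of its relatives TFCP2, UBP1, GRHL1, GRHL2 and GRHL3, 0 of 5 had a row.

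KLF4 (gene ID 9314, chromosome 9), a zinc finger factor of the Krüppel-like family, measured 0.81 FPKM in the knockdown library, against 2.49 FPKM in the scramble library. It had 52 knockdown reads and 166 scramble reads and was 3.09-fold lower (interval 2.25 to 4.30). KLF2 (gene ID 10365, chromosome 19), a close relative that acts beside it in mouse embryonic stem cells, measured 4.23 FPKM in the knockdown library, against 0.75 FPKM in the scramble library. Its 264 knockdown reads and 48 scramble reads gave a ratio of 5.69 (interval 4.17 to 7.91). The intervals of the KLF2 and KLF4 ratios lie on opposite sides of 1, so these relatives differed between the libraries in opposite directions.

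The balance between KLF2 and KLF4 was turned round. Per length, the level of KLF2 was 5.24 times that of KLF4 in the knockdown library (interval 3.88 to 7.20) and 0.299 times in the scramble library (interval 0.212 to 0.414). Their summed level was 5.04 FPKM in the knockdown library and 3.24 FPKM in the scramble library. The deposited length of KLF2 is 2814 bases, against 2018 bases for its longest transcript in GENCODE 29. A shorter true length would raise its FPKM alike in both libraries, and with it its level over KLF4, and leave its ratio between the libraries as it is.

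TFAP2C (gene ID 7022, chromosome 20), the AP-2 gamma transcription factor, had the highest level of the 6 in both libraries, at 6.95 FPKM in the knockdown library and 14.8 FPKM in the scramble library. It was 2.12-fold lower (interval 1.90 to 2.38), the smallest difference of the 6, and 769 of the 921 lower genes had a lower log2 ratio. Its authors' log2 ratio of -1.09 stands just inside the table's limit of 1 in size. Its reads, 447 in the knockdown library and 981 in the scramble library, were estimated from the levels, because no pair of whole reads matched its deposited p-value. The 4 other AP-2 genes, TFAP2A, TFAP2B, TFAP2D and TFAP2E, had no row.

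NLRP7 (gene ID 199713, chromosome 19) encodes a NACHT and leucine-rich repeat protein of the NLRP family. Its maternal mutations cause recurrent hydatidiform mole in humans, and it is used as a marker of human naive cells. It measured 0.73 FPKM in the knockdown library, against 2.44 FPKM in the scramble library, from 53 knockdown reads and 188 scramble reads, and was 3.43-fold lower (interval 2.52 to 4.74). Its value is uncertain, since 13.2% of the 31-base words of its longest GENCODE 29 transcript also occur in NLRP2, and NLRP2 overlaps it on the opposite strand in that annotation. NLRP2 had no row, and the strand setting of the counting is not given in the sources used here. For each of the other 5 genes at most 0.302% of these words occur in another gene, and GENCODE 29 places no other gene over them.

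NR0B1 (gene ID 190, chromosome X), also called DAX1, is an orphan nuclear receptor that lacks the usual DNA-binding domain and, in mouse embryonic stem cells, binds and restrains partner factors. It was at 0.90 FPKM in the knockdown library, from 31 reads, and had 0 reads in the scramble library, where it is listed at the floor of 0.01 FPKM. A count of 0 allows up to 3 reads (0.0839 FPKM) there as a one-sided limit, and the two-sided Poisson interval drawn in the plot of levels ends at 0.103 FPKM. The exact interval of the ratio, which also takes in the error of the 31 knockdown reads, starts at 8.18-fold higher, and with 3 scramble reads in place of 0 the ratio itself would be 10.7. The authors' log2 ratio of 6.49 for it is set by the value of 0.01 and is no measured size.

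**Figure D2:**
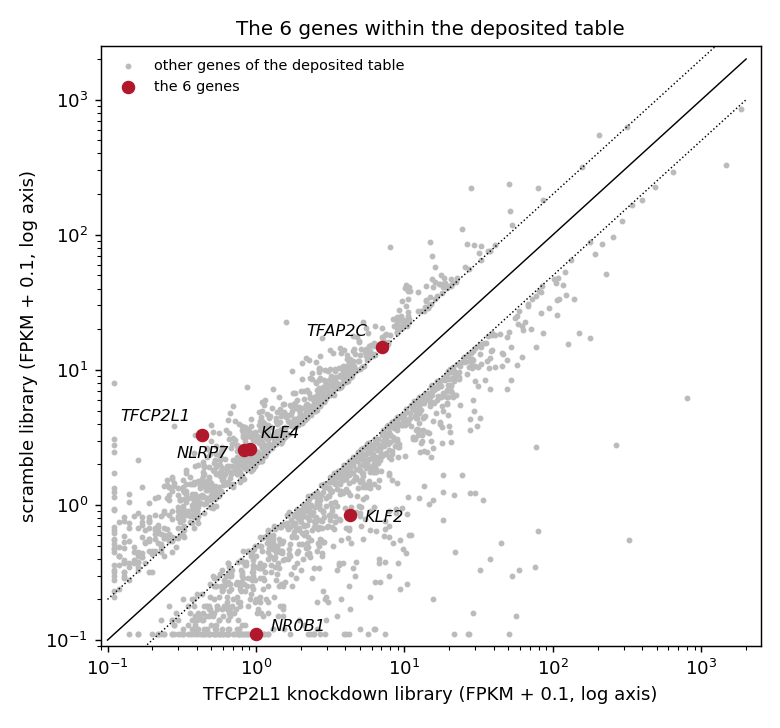
Level in the TFCP2L1 knockdown library (x axis) against the scramble library (y axis), both as FPKM + 0.1 on log axes, for all genes of the deposited table, with the 6 genes in red. The solid line marks equal levels and the dotted lines 2-fold. KLF4 and NLRP7 nearly coincide, TFAP2C sits beside the 2-fold line, and TFCP2L1 and KLF2 are farther from it on opposite sides.

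The order of the levels differed between the libraries. From high to low it was TFAP2C, KLF2, NR0B1, KLF4, NLRP7 and TFCP2L1 in the knockdown library, and TFAP2C, TFCP2L1, KLF4, NLRP7, KLF2 and NR0B1 in the scramble library. In the knockdown library the neighbours NR0B1 and KLF4 (level ratio 1.11, interval 0.687 to 1.76) and the neighbours KLF4 and NLRP7 (1.12, interval 0.752 to 1.68) did not differ beyond counting error, while TFCP2L1 was below NLRP7 (NLRP7 over TFCP2L1 2.18, interval 1.50 to 3.17). In the scramble library KLF4 and NLRP7 were again not apart (1.01, interval 0.816 to 1.25), and TFCP2L1 was above KLF4 (1.28, interval 1.08 to 1.53). TFCP2L1 was thus the second of 6 with the scramble virus and the last with the shRNA. The summed level of the 4 lower genes was 8.82 FPKM in the knockdown library and 22.9 FPKM in the scramble library, most of it TFAP2C. In bulk RNA, fewer cells that carry a transcript and less of it per cell cannot be told apart.

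Markers of other cell types also differed between the same 2 libraries, and each list is given as a defining set and then with its wider list. Of all genes inferred as tested, 5.86% had a row as higher and 4.98% as lower. Of 6 definitive endoderm markers (SOX17, FOXA2, CXCR4, GATA6, GATA4 and HHEX), 6 of 6 had a row and were higher, with a summed level of 159 FPKM in the knockdown library and 2.38 FPKM in the scramble library, where SOX17 was listed at the floor. In the wider endoderm list 12 of 14 genes had a row, all 12 higher. Of 6 primitive streak markers, T, MIXL1, EOMES and GSC were higher, at a sum of 413 FPKM in the knockdown library and 3.48 FPKM in the scramble library, and TBX6 and MESP1 had no row. In the wider streak list 12 of 14 genes had a row, 11 higher and 1 lower, the lower one being MESP2 at 0.14 FPKM in the knockdown library and 0.80 FPKM in the scramble library. None of 10 trophoblast and amnion markers had a row, and in the wider list of 19 there were 2, GABRP and IGFBP3, both lower. Neuroectoderm genes lay on both sides. Of 5 defining markers NES and SIX3 had a row and were higher, at a sum of 252 FPKM in the knockdown library and 95.9 FPKM in the scramble library, where SIX3 was at the floor. The wider list of 10 added SOX3, which was lower, at 8.82 FPKM in the knockdown library and 24.4 FPKM in the scramble library. Fibroblast markers had 2 of 8, VIM (215 FPKM in the knockdown library, 85.6 FPKM in the scramble library) and COL1A1 (24.4 FPKM in the knockdown library, 110.2 FPKM in the scramble library), in opposite directions, and the wider list of 12 had 4, 2 higher and 2 lower. The part of such cells in the levels of the 6 genes was not tested.

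The KLF and SP family, KLF2 and KLF4 included, lay on both sides. Of 26 members 8 had a row, 5 higher and 3 lower, or 4 higher and 2 lower without KLF2 and KLF4. Of all deposited genes 54.1% were higher, so a split of this kind is not particular to the family. The median log2 ratio of the 8 was 1.25, beside 1.02 over all 1819 deposited genes that reached 0.5 FPKM. KLF10, a TGF-beta-induced repressor, measured 12.2 FPKM in the knockdown library, against 37.8 FPKM in the scramble library, a ratio of 0.324 (interval 0.300 to 0.350), the same to 3 digits as that of KLF4. KLF9 was lower too, at 0.75 FPKM in the knockdown library and 1.76 FPKM in the scramble library. KLF5, which shares functions with KLF2 and KLF4 in mouse embryonic stem cells, measured 10.95 FPKM in the knockdown library, against 3.72 FPKM in the scramble library, a ratio of 2.94 (interval 2.57 to 3.37). KLF8 measured 5 FPKM in the knockdown library, against 2.49 FPKM in the scramble library, and SP8 measured 1.66 FPKM with the knockdown and 0.48 FPKM with scramble. SP5, a direct target of WNT signalling, measured 59.2 FPKM in the knockdown library, against 0.23 FPKM in the scramble library, so the family's highest ratio was not that of a KLF. KLF17, a factor of human naive cells, had no row.

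In the NLRP family 3 of 14 genes had a row, NLRP7 included, all 3 lower, where 4.98% of the genes inferred as tested were listed as lower. NLRP10 measured 0.09 FPKM in the knockdown library, against 0.68 FPKM in the scramble library, from 4 knockdown reads and 31 scramble reads. NLRP1 measured 0.10 FPKM in the knockdown library, against 0.33 FPKM in the scramble library, from 11 knockdown reads and 40 scramble reads. Both stayed under 1 FPKM, and NLRP7 was the family member with the highest level in either library among those listed. Of 8 genes of the subcortical maternal complex of the egg and its relatives, NLRP7 alone had a row.

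Among 48 nuclear receptors 7 had a row, 3 higher and 4 lower, where 54.1% of all deposited genes were higher. The median log2 ratio of the 7 was -0.98, beside 1.02 over all deposited genes that reached 0.5 FPKM. With a pseudocount of 1 FPKM the median of the 7 was -0.38. NR0B1 was among the higher ones with RXRG, a retinoid X receptor, at 1.44 FPKM in the knockdown library and 0.02 FPKM in the scramble library, and with HNF4A, an endoderm and liver factor, at 0.74 FPKM with the knockdown and 0.03 FPKM with scramble. Of the lower ones, PPARD measured 5.49 FPKM with the knockdown and 12.85 FPKM with scramble. NR4A3 (knockdown 0.13 FPKM, scramble 0.73 FPKM), NR3C2 (knockdown 0.14 FPKM, scramble 0.50 FPKM) and ESRRG (knockdown 0.30 FPKM, scramble 0.69 FPKM) stayed under 1 FPKM in both libraries. ESRRB and NR5A2, receptors of the mouse naive network, had no row.

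Other genes linked to the naive state also lay on both sides. Of 33 such genes 6 had a row, 4 higher and 2 lower, where 54.1% of all deposited genes were higher. The median log2 ratio of the 5 that reached 0.5 FPKM was 1.53, beside 1.02 over all deposited genes at that level. FGF4, an FGF ligand made by the epiblast, measured 24.4 FPKM in the knockdown library, against 1.56 FPKM in the scramble library, and GBX2, a homeobox factor, measured 4.05 FPKM with the knockdown and 0.47 FPKM with scramble. TBX3 had 24 reads (0.22 FPKM) in the knockdown library and 0 reads in the scramble library, and the exact interval of its ratio starts at 6.23-fold higher. PRDM14, a repressor of differentiation, measured 18.3 FPKM in the knockdown library, against 42.4 FPKM in the scramble library, and SOX15 measured 9.59 FPKM with the knockdown and 20.8 FPKM with scramble. With KLF5 these are all the listed ones, and the lower PRDM14 and SOX15 had ratios of 0.432 and 0.463, near the 0.471 of TFAP2C. These ratios lie close to the 2-fold limit that bounds every listed lower gene.

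The LIF and STAT3 pathway, which acts upstream of Tfcp2l1 and Klf4 in mouse cells, had 5 of 22 genes with a row, 2 higher and 3 lower. Of all deposited genes 54.1% were higher. The median log2 ratio of the 5 was -1.26, beside 1.02 over all deposited genes that reached 0.5 FPKM. PIM1, a kinase gene induced by STAT3, measured 15.1 FPKM in the knockdown library, against 69.4 FPKM in the scramble library, a ratio of 0.218 (interval 0.203 to 0.234). The ligand LIF measured 2.34 FPKM in the knockdown library, against 5.75 FPKM in the scramble library, and the receptor IL6R measured 0.73 FPKM with the knockdown and 2.09 FPKM with scramble. The receptors CNTFR (17.9 FPKM in the knockdown library and 2.79 FPKM in the scramble library) and OSMR (3.94 FPKM with the knockdown and 1.81 FPKM with scramble) were higher. STAT3, SOCS3, LIFR and IL6ST had no row.

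Genes of the core network and of the primed state stood on opposite sides. Of 20 core genes 6 had a row (UTF1, DPPA2, PODXL, TERT, PRDM14 and SOX2), all 6 lower. PRDM14 is also one of the naive-state genes above. Of the genes inferred as tested, 4.98% had a row as lower and 5.86% as higher. The median log2 ratio of the 6 core genes was -1.45, beside 1.02 over all deposited genes that reached 0.5 FPKM. The core ratios ran from 0.167 (UTF1) to 0.477 (SOX2). KLF4 and NLRP7, at 0.324 and 0.292, lie inside this range, TFAP2C at 0.471 is at its upper end, and TFCP2L1 at 0.103 is below it. The upper end is bounded by the 2-fold limit that every listed gene passes, so a place near it shows no likeness to core genes. Of 19 primed-state genes 6 had a row, all 6 higher, with a median log2 ratio of 1.91. Their ratios rose from DUSP6 at 2.13-fold through VIM, CDH2, GAL and ZIC2 to OTX2 at 5.06-fold. VIM is also among the fibroblast markers above. KLF2, at 5.69-fold (interval 4.17 to 7.91), was above the ratios of all 6 listed primed-state genes. Its interval overlaps those of OTX2 (4.63 to 5.54), ZIC2 (4.31 to 4.87) and GAL (4.32 to 4.58).

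The genes of the table with the pair of levels most like those of each gene were found by distance over the 2 libraries on the scale of log2(FPKM + 0.1), with 2 named for each. For KLF4 they were NTRK3 and CADPS2, for TFAP2C TMEM101 and RNASET2, and for NLRP7 RPRML and DHDH, all within a distance of 0.110. For TFCP2L1 they were G0S2 and CA4, for KLF2 PRTG and FAM20A, and for NR0B1 UBD and ZFP91-CNTF, at distances of 0.134 to 0.255. A likeness over 2 libraries is a description of size alone.

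Of the 3 nearest protein-coding genes on each side of the 6 genes (36 places, RefSeq order on GRCh38.p14), 1 had a row. This was NCR1, next to NLRP7 on chromosome 19, at 3.90 FPKM in the knockdown library and 0.85 FPKM in the scramble library, the opposite direction to NLRP7. In the annotation columns of the authors' deposited table, NR0B1, TFCP2L1, KLF4 and TFAP2C carry the term nucleic acid binding transcription factor activity and KLF2 does not, although it encodes a transcription factor. The term is on 91 of the 2005 genes (4.54%), 49 of them higher and 42 lower, so that 53.8% of its genes were higher, near the 54.1% of all deposited genes.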

How the data were processed

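RNA was extracted with Trizol, and libraries from 1 ug of total RNA went on a BGISEQ-500 sequencer according to the labels' protocols. The submitters' processing notes name hg19 and Bowtie 0.12.2. Not given in the sources used here are the counter, quantifier, test and strand setting. The authors' deposited table gives gene length, the level in either library, their log2 ratio, and a p-value with its false discovery rate. Its header calls the levels expression, and they were read as FPKM as deposited by the authors, since they scale with inferred reads over length and library size; RPKM cannot be told apart. Their deposited log2 ratio is the knockdown level divided by that of scramble. The lowest deposited FPKM, 0.01, is a floor.

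The number of genes tested by the authors, 18489, came from their p-values and rates. Reads were inferred because the authors' table holds no counts. For genes whose scramble level is the floor, 67 of 75 p-values give whole reads within 0.001, with a depth ratio of 1.034 (scramble over knockdown). For each gene, whole reads were sought that match both levels and the p-value under a Poisson comparison of libraries (doubled smaller tail, the upper tail leaving out the observed read number) to 0.0002 in ln p. Such reads were found for 72.6% of the 1926 genes whose p-value is above 0, among them 5 of the 6 described genes, each with exactly 1 solution; other reads were estimated from FPKM. On a simulated table of 1773 genes, solutions were found for 99.9% of genes, and 100% of these were the reads drawn. That table was made with the same Poisson comparison, depths and lengths that the search assumes. It checks the search alone and cannot show that the assumptions hold for the deposited values, where 72.6% had a solution.

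Read ratios carry 95% intervals by the exact Clopper-Pearson method, on the knockdown share of a gene's reads. They take each read as independent, which reads without molecular identifiers need not be. Log2 ratios of FPKM use a pseudocount of 0.1, which understates low genes. With 1 library a group the conditions were not tested. The 6 genes and the 16 gene lists were chosen with earlier results of these data known, and the motifs after the sequences were seen. Named are the 6 genes, the listed members of related lists (the 3 highest and 3 lowest ratios where more than 6 others have a row; for marker lists sums), the 2 nearest genes in level, and genomic neighbours. Python 3.11.15, pandas 2.3.3 and scipy 1.17.1 were used.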

Additional observations from a re-analysis of the deposited data

How the results depend on the processing

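No paired analysis was possible because each group is 1 library. No direction of any of the 6 genes was turned by a pseudocount of 1 or 0.01, the authors' deposited ratios or the inferred reads. The medians of 6 lists were recomputed with a pseudocount of 1, with no limit on low levels and from the authors' ratios, and kept their sign. With a pseudocount of 1 FPKM the log2 ratios moved toward 0, to -1.66 for TFCP2L1, 1.58 for KLF2, -0.95 for KLF4, -0.99 for NLRP7 and 0.91 for NR0B1, and with it 1 of the 6 genes, TFCP2L1, was still at least 2-fold lower. The same pseudocount left 364 of the 2005 deposited genes at least 2-fold lower and gave list medians of -0.38 (nuclear receptors), 0.81 (KLF/SP family) and -0.84 (LIF/STAT3 pathway). NR0B1 was at 5.51 with a pseudocount of 0.01 FPKM and at 6.49 in the authors' deposited table, both set by the value written for 0 reads. Without a limit on low levels 2 of the 6 genes, KLF2 and NR0B1, were at least 2-fold higher, beside 1020 of the 2005 deposited genes. Depth limits NR0B1 most, with 31 reads in all, while the other 5 had 218 to 1428 over both libraries.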

Other observations

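TFAP2C and KLF4 are also expressed in primordial germ cells, of which SOX17 and PRDM1 are markers as well. Of 13 germ cell genes 5 had a row, 2 higher and 3 lower, where 54.1% of all deposited genes were higher. SOX17 had 26.6 FPKM in the knockdown library and the floor value in the scramble library, and PRDM1 measured 4.16 FPKM in the knockdown library, against 0.57 FPKM in the scramble library. TFAP2C and KLF4 were lower, as given above, and DAZL measured 0.28 FPKM in the knockdown library, against 0.72 FPKM in the scramble library. NANOS3, KIT, DND1 and DPPA3 had no row. Of 19 trophoblast and amnion genes, which include AP-2 relatives of TFAP2C, 2 had a row and both were lower. These were GABRP at 0.37 FPKM in the knockdown library and 2.53 FPKM in the scramble library, and IGFBP3 at 0.97 FPKM in the knockdown library and 2.04 FPKM in the scramble library.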
